A study of Mus musculus with 24 samples.

Results

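The brain of mice treated with an extract of Ephedra herba for 6, 12 or 24 hours, 3 days or 5 days (5 arrays) was compared with that of untreated mice and of mice treated for 1 hour or 10 days (3 arrays). They are the 8 brain arrays among the 24 arrays of the series, which also hold 8 arrays of heart and 8 of liver. The groups were selected on the expression values of these same arrays, which fall together this way, so the comparison is a description of how the groups differ and carries no test. All groups were female C57BL/6 mice aged 5 weeks. The mice of 6 hours to 5 days, and those of 1 hour and 10 days, were given a water extract of the plant by mouth at 50 mg/kg, and the untreated mice were not. Each time is 1 array, with no replicate. The number of animals behind an array, whether the dose was repeated, the clock time of sampling and the piece of brain used are not stated in the sources used here. Slides and scans are not stated either, so a batch of arrays and the time of treatment cannot be told apart in this comparison, and the 10 day array lies on the side of the untreated array.

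Ephedra herba is the dried stem of a shrub whose main alkaloids, ephedrine and pseudoephedrine, release noradrenaline and act on adrenergic receptors, also in the brain. A brain homogenate mixes regions with very different transcripts: granule and Purkinje cells of the cerebellum, neuropeptide neurons of the hypothalamus, medium spiny neurons of the striatum, and glia throughout. The level of a transcript therefore depends on the cells in the piece as well as on each cell's RNA, and fewer cells of a type and less RNA per cell cannot be told apart here.

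The values are the deposited log2 values, centred near 0 on each array, so a difference of 1 is a doubling of signal. The shape of the distributions followed the grouping. The 5th percentile lay between -0.94 and -0.93 on the arrays of 6 hours to 5 days, against -0.91 on each of the other 3, and the 75th percentile lay between 1.78 and 1.87, against 1.92 to 1.98. Across probes the Spearman correlation was 0.977 to 0.979 among the untreated, 1 hour and 10 day arrays. The 3 day array stood between the groups, at 0.967 to 0.971 with its own 4 and at 0.970 to 0.972 with the other 3, and the 12 hour array was the farthest from the other group, at 0.955 to 0.963. The highest Pearson correlation between any pair of the 24 arrays was 0.996. The tissue label fits its markers: the list of general neuron genes averaged 4.78 to 5.04 on the arrays of 6 hours to 5 days and 4.93 to 5.16 on the others, with Snap25 and Nefl below the array median on all 8, and 10 of 13 skeletal muscle and fat markers lay below the median on all 8.

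A gene was counted as past the rule where all 5 arrays of 6 hours to 5 days lay on the same side of all 3 others and the means differed at least 1.5-fold. Of 9086 genes above the array median on at least 3 brain arrays, 812 (8.94%) were past the rule, 358 of them higher (3.94%) and 454 lower (5%). Among the 7796 genes above the median on all 8 arrays, 258 (3.31%) were higher and 433 (5.55%) lower. In 62 of the 358 higher genes, and 4 of the 454 lower ones, every array of the group with the lower values lay below the array median. Such genes were kept only through the other group and had to differ, so counts that include them are no support for a list. The limit of 3 arrays equals the size of the untreated, 1 hour and 10 day group. Any higher gene that was not above the median on all 8 arrays therefore also needed arrays of 6 hours to 5 days to be kept. Counts with such genes are no support either. En2, Il16, Vps26b, Tomm70a, Sdhd and Slc6a4, described below, are of this kind. At any size, 742 genes (8.17%) were higher and 1910 (21%) lower without overlap. The median difference over the 9086 genes was -0.14, although the median over all probes was near 0 on each array. Without the detection limit the median difference was -0.05. Epm2aip1 at 0.586 and Arhgap45 at -0.585 were the members nearest to the 1.5-fold limit, and Aktip at 0.584 and Bola3 at -0.585 the nearest genes outside it. The lower side depended on the scale. After quantile normalization of the 8 brain arrays the median gene was at -0.04, 358 of the 358 higher genes stayed past the rule, and 169 of the 454 lower genes did. The share of higher genes among all genes past the rule was 44.1% as deposited and 74% after that step. It also depended on single arrays: without the 12 hour array 300 genes were lower, of which 254 were among the 454, without the 3 day array 506 were higher and 902 lower, and without the 10 day array 469 were higher and 907 lower.

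The largest rise by the naming rule, among genes above the array median on all 5 arrays of 6 hours to 5 days, was in En2, the homeobox gene that patterns midbrain and cerebellum. En2 was at 3.02, 3.59, 3.62, 1.79 and 3.45 on the arrays of 6, 12 and 24 hours, 3 days and 5 days, against 0.13, -0.23 and 1.69 on the untreated, 1 hour and 10 day arrays. The difference of the means was 2.56 on the log2 scale, or 5.90-fold, and the gap between the groups was narrow, since the 3 day array lay just above the 10 day array. Zic1, a zinc finger gene of cerebellar granule cell precursors, had the same order: 4.03, 4.25, 4.44, 3.13 and 4.44 at 6 hours to 5 days, against 1.87, 1.75 and 2.98 on the untreated, 1 hour and 10 day arrays. Its difference was 1.86, and again the 3 day array was the lowest of its group and the 10 day array the highest of the other.

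In the remaining named rises the 10 day array was within 0.56 of the untreated array. Gpm6a, a membrane glycoprotein of growing neurites, averaged 3.83 ± 0.34 at 6 hours to 5 days (SD, n = 5 arrays) and 1.98 ± 0.18 on the other arrays (SD, n = 3), a difference of 1.85. A further tested Gpm6a probe differed by 0.98 with overlap, since its 3 day array was at 1.82, against 1.87, 1.77 and 2.53 on the untreated, 1 hour and 10 day arrays. Atp5a1, the alpha subunit of ATP synthase, was at 2.50, 2.44, 2.74, 2.15 and 3.06 at 6 hours to 5 days, against 0.74, 0.87 and 0.92 on the untreated, 1 hour and 10 day arrays. Tomm70a, an import receptor of the outer mitochondrial membrane, averaged 1.75 ± 0.32, against 0.03 ± 0.11. Pgrmc1, a haem-binding membrane protein that partners cytochrome P450 enzymes, averaged 2.44 ± 0.25, against 0.64 ± 0.09. The 10 day array was above the untreated array by 0.18 in Atp5a1, 0.20 in Tomm70a and 0.05 in Pgrmc1, and the gaps between the groups were 1.22, 1.22 and 1.52.

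Kpnb1, the importin that carries proteins into the nucleus, was 1.77 higher, Vapa, a tether of the endoplasmic reticulum to other membranes, 1.77, Vps26b, a subunit of the retromer that sorts endosomal cargo, 1.72, and Slc23a2, the neuronal vitamin C transporter, 1.68. Il16, whose long form is a neuronal scaffold protein and whose cut form is a cytokine, was 1.79 higher. Among the named rises 4833439L19Rik, for which no role is given here, shows how far a result can rest on the probe. Its brightest probe was 1.71 higher, while its other 2 probes differed by 0.05 and 0.00. Of the 358 higher genes, 65 had a further tested probe, and 50 of these genes had such a probe with the same sign. In 17 a further probe was past the rule in the same direction (26.2%, against 7.73% of all 2304 genes with a further tested probe). In 1 a further probe was past it in the opposite direction.

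**Figure D1:**
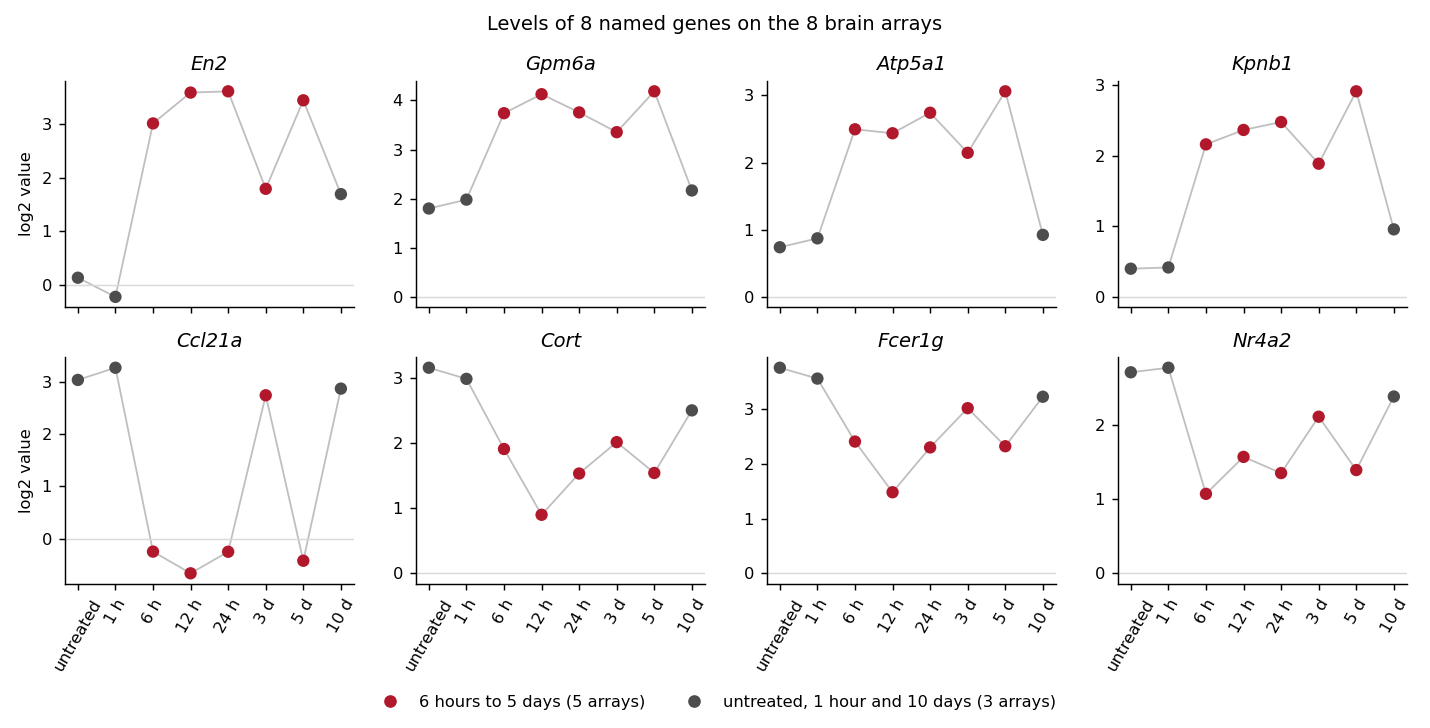
Log2 values of 4 genes that were higher and 4 that were lower at 6 hours to 5 days, on each of the 8 brain arrays in order of time; each point is 1 array. En2 at 3 days (1.79) lies just above 10 days (1.69), and Ccl21a at 3 days (2.75) lies just below 10 days (2.88).

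On the lower side the 3 largest differences were Ccl21a, Ccl21c and Ccl21b, copies of the gene for the chemokine CCL21, which draws T cells and dendritic cells that carry the receptor CCR7. The copies are nearly identical, so their probes may not tell them apart and the 3 are uncertain as separate results. Ccl21a was at -0.25, -0.67, -0.25, 2.75 and -0.43 on the arrays of 6, 12 and 24 hours, 3 days and 5 days, against 3.05, 3.28 and 2.88 on the untreated, 1 hour and 10 day arrays. The signal was thus below the array median on 4 arrays and near the other group on the 3 day array, which was 0.13 below the 10 day array. Ccl21c and Ccl21b followed, at 1.99 and 2.17 on the 3 day array and between -0.78 and -0.21 on the other 4 arrays of 6 hours to 5 days. The differences of the means were -2.84, -2.44 and -2.37 for Ccl21a, Ccl21c and Ccl21b, and -3.47, -2.96 and -2.87 without the 3 day array.

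The other 9 named falls were smaller, and 5 of them were deepest at 12 hours. Cort, the gene of the interneuron peptide cortistatin, was at 1.91, 0.90, 1.54, 2.02 and 1.54 at 6 hours to 5 days, against 3.16, 2.99 and 2.51 on the untreated, 1 hour and 10 day arrays. A further Cort probe also passed the rule, at -0.96 beside -1.31. Fcer1g, the signalling chain of Fc receptors on microglia, was at 2.41, 1.48, 2.30, 3.02 and 2.32, against 3.76, 3.56 and 3.23. Nr4a2, an orphan nuclear receptor that is needed by dopamine neurons and induced by neuronal activity, was lowest at 6 hours instead: 1.07, 1.57, 1.35, 2.11 and 1.39 at 6 hours to 5 days, against 2.71, 2.78 and 2.39 on the untreated, 1 hour and 10 day arrays. In all 3 genes the 3 day array was the nearest to the other group.

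Snrpd1, a core protein of the spliceosome, was lower by 1.16 with a further probe at -1.13, also past the rule. Cartpt, the gene of the feeding peptide CART, was lower by 1.09 and its further probe by 0.99, but after quantile normalization its arrays overlapped. That step also brought the arrays of Dusp14, a phosphatase of MAP kinases, into overlap, from a difference of -1.04. Ring1, a ubiquitin ligase of the Polycomb complex, differed by -1.07, Ddb1, the adaptor of the CUL4 ubiquitin ligase, by -1.05, and Tnfrsf25, a death receptor of lymphocytes, by -1.08. The mean over the probes of Tnfrsf25 differed by only -0.51. Of the 454 lower genes, 123 had a further tested probe, and 108 of these genes had such a probe with the same sign. In 36 a further probe was past the rule in the same direction (29.3%, against 4.9% of all genes with a further tested probe). In 3 a further probe was past it in the opposite direction.

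Promoter sequences of a named rise and of 3 named falls with different time patterns are given to show what lies at their starts. They come from RefSeq on build GRCm38.p6, each 300 bases long (250 before the start and 50 after it), written 5′ to 3′ on the gene's strand. Capitals mark matches on either strand to TATAAA, to ATAAATA (which can overlap TATAAA), to the E-box CACGTG or to TGACG, the core of a cAMP response element.
Zic1, chr9:91365719-91366018, minus strand: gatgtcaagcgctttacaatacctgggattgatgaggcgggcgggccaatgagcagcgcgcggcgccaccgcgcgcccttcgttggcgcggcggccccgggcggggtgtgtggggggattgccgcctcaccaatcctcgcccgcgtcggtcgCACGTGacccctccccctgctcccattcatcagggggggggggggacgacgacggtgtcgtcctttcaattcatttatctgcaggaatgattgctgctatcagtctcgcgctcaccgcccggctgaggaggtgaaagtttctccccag
Ccl21a, chr4:42773942-42774241, minus strand: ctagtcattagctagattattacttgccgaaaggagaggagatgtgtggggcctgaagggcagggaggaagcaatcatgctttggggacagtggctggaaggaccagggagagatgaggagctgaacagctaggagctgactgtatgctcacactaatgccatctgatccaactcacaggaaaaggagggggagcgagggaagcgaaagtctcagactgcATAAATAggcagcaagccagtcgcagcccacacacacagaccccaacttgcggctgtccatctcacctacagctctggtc
Cort, chr4:149126714-149127013, minus strand: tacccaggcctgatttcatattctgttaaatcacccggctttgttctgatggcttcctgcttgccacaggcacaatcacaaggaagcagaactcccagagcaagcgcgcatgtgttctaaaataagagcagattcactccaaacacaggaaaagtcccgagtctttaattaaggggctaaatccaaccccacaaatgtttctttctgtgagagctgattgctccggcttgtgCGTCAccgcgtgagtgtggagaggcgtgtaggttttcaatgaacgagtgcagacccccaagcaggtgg
Nr4a2, chr2:57123954-57124253, minus strand: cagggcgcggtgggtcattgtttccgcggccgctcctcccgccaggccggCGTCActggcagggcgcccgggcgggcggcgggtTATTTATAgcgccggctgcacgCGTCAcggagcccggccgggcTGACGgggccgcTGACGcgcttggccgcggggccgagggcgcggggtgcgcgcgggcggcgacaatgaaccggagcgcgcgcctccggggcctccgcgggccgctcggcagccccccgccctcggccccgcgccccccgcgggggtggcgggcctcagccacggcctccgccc
Of the 24 named genes, 9 of the 12 higher and 10 of the 12 lower had a promoter in the table. TGACG was found in those of 4 higher and 5 lower genes, against 20.8% of all 32851 promoters, with 4 matches in Nr4a2. CACGTG was found in 2 higher and 0 lower genes, against 7.15% of all. TATAAA was found in 1 higher and 1 lower gene, against 13.6%, and ATAAATA in 0 higher and 2 lower genes, Ccl21a among them, against 5.6%. A gene was counted if any of its promoters matched, while the shares of all are over single promoters, so they are not the same measure. These matches describe the letters only.

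The regional lists moved in different directions, with 3 patterns. The median of 13 measured cerebellar genes differed by 0.63, against -0.14 for all genes. By the rule 4 were higher (30.8%, against 3.94% of all genes) and 0 lower. Besides En2 and Zic1 these were Neurod1, a transcription factor of granule cells, at 0.79, and Ppp1r17, a phosphatase inhibitor of Purkinje cells, at 0.63. Both of these were kept through the arrays of 6 hours to 5 days alone, since the other 3 lay below the array median, and without the detection limit the list's median was 0.51. The largest cerebellar difference was outside the rule. Pcp2, a Purkinje cell gene, was at 4.71, 3.58, 5.23, 2.86 and 5.32 at 6 hours to 5 days, against -0.01, -0.77 and 2.91 on the untreated, 1 hour and 10 day arrays, a difference of 3.63 in which the 10 day array was 0.06 above the 3 day array. Cbln1, the synapse organiser released by granule cells, differed by 1.85 with the same overlap, at 4.61 on the 3 day array and 4.66 on the 10 day array. Without the 3 day array 8 of the 13 genes were higher, against 506 of all 9086 genes. After quantile normalization 8 were higher too, against 481 of 9086. Both counts still hold Neurod1 and Ppp1r17. The summed pattern was the same: the mean level of the 18 cerebellar genes on the array was 0.99 to 1.78 at 6 hours to 5 days and 0.47 to 1.00 on the other 3 arrays, with 4 of them (Calb1, Cbln3, Fat2 and Pcp4) below the median on all 8.

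Some brainstem genes stood on the same side. The median of 5 measured hindbrain and spinal cord genes was 0.66. Of these 2 were higher (40.0%, against 3.94% of all genes), Glra1, a glycine receptor subunit, and Slc6a2, the noradrenaline transporter, at 0.66 each. Both genes lay below the array median on the untreated, 1 hour and 10 day arrays, so the detection limit let them in through the high group alone, and without that limit the median over the list was 0.14. The homeobox genes Hoxa5 and Hoxb5 differed by 1.22 and 1.09, with overlap because the 3 day array was low (-0.51 and 0.33). Without that array 4 of the 5 genes were higher, against 506 of all 9086 genes. Hoxa5 too lay below the array median on the untreated, 1 hour and 10 day arrays. Tph2, the enzyme of serotonin synthesis in raphe neurons, was at 2.14, 2.32, 2.19, 1.90 and 2.06 at 6 hours to 5 days, against 0.58, 0.00 and 1.22 on the untreated, 1 hour and 10 day arrays. Its 3 day array was the lowest of the 5, as in En2 and Pcp2. Slc6a4, the serotonin transporter, was 0.84 higher, and Slc5a7, the choline transporter of cholinergic neurons, 0.59. These are 3 of 15 measured thalamus and midbrain genes, of which 1 was lower, Rgs16, a regulator of G protein signalling, at -0.66, and the list's median was 0.02 (-0.05 without the 3 day array). The difference was negative in 7 of the 15, so that list as a whole had no common direction. Rgs16 fell short of 1.5-fold after quantile normalization (-0.51), and Slc5a7 fell short without the 12 hour array (0.47).

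Hypothalamic and forebrain genes stood on the other side. Of 15 measured hypothalamic genes 5 were lower (33.3%, against 5% of all genes) and 0 higher. The median of these 15 genes was -0.44, or -0.29 without the 12 hour array. The difference was negative in 12 of them, which is 80.0%, against 65.8% of all genes, and positive in Gal (galanin) at 0.55, in Nkx2-1 at 0.13 and in Cited1 at 0.01. Gal was past the rule as higher without the 12 hour array (0.65) or without the 3 day array (0.64). The lower genes were Cartpt, Oxt (oxytocin) at -0.99, Pmch (melanin-concentrating hormone) at -0.93, Hcrt (orexin) at -0.85 and Npy (neuropeptide Y) at -0.76. Oxt was at 3.18, 1.87, 2.78, 2.89 and 3.09 at 6 hours to 5 days, against 4.14, 3.75 and 3.36 on the untreated, 1 hour and 10 day arrays, so that its groups were 0.18 apart. Avp (vasopressin) differed by -1.05 but overlapped, at 2.19 on the 6 hour array and 1.99 on the 10 day array. The 12 hour array was the lowest of all 8 for each of these 6 genes. All 12 measured striatal genes had a negative difference, with a median of -0.47. By the rule 2 were lower (16.7%, against 5% of all genes), Syndig1l, a synaptic membrane protein, at -0.86 and Gpr6, a receptor of striatopallidal neurons, at -0.66. Without the 3 day array 5 were lower, against 902 of all 9086 genes. In cortex and hippocampus 3 of 14 were lower (21.4%, against 5% of all genes), with a median of -0.32. They were Fezf2, a transcription factor of deep layer neurons, at -0.90, Nrgn, a calmodulin-binding protein of dendrites, at -0.87, and Crym, a thyroid hormone binding protein, at -0.78. Npy and Crym differed by -0.54 and -0.58 without the 12 hour array and were then outside the rule, as was Nrgn after quantile normalization. The medians of these regional lists thus ran from 0.66 in hindbrain, or 0.14 without the detection limit, to -0.47 in striatum. Whether the piece of brain differed between arrays was not tested. The pituitary hormone genes Gh and Prl showed another pattern: Prl was at 3.56 and 3.21 on the 12 hour and 3 day arrays and at 3.64 on the 1 hour array, and between -0.64 and 0.89 on the other 5.

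**Figure D2:**
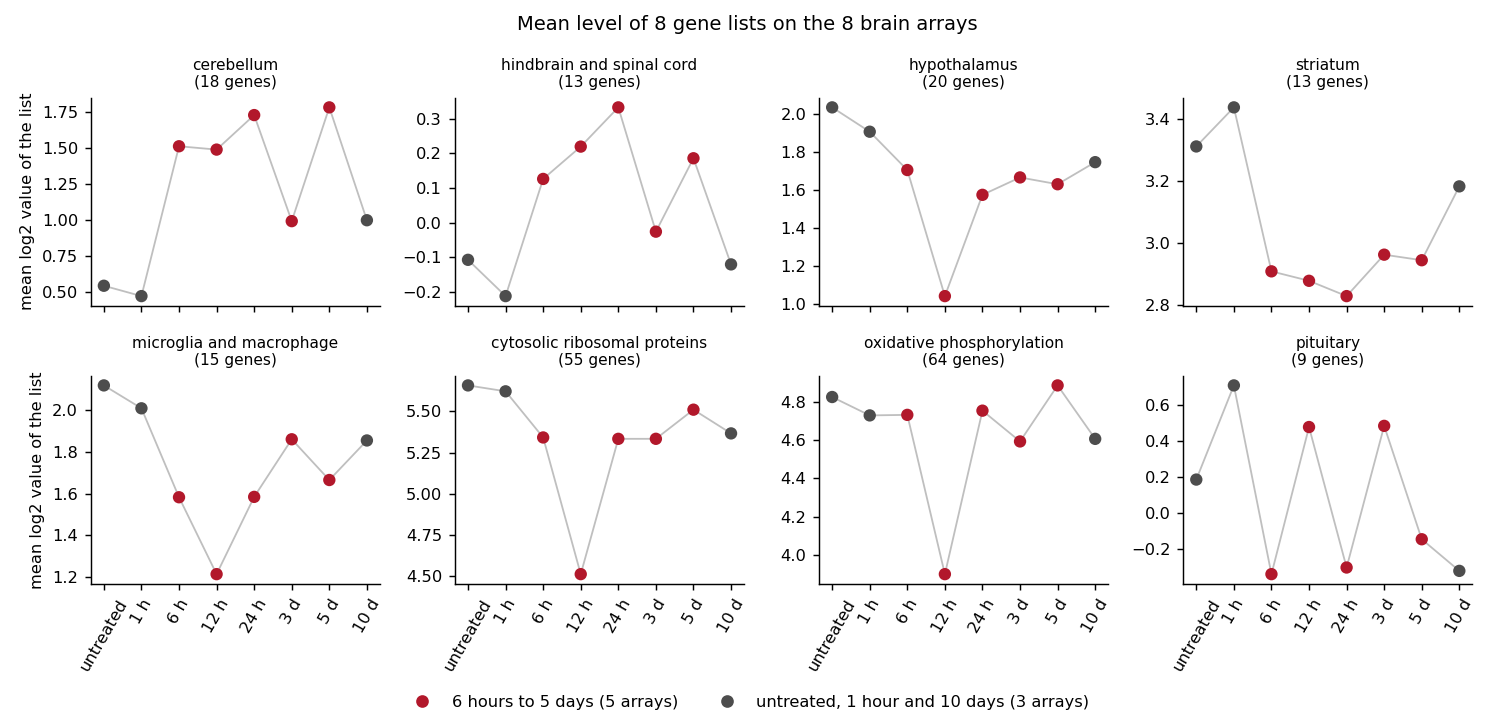
Mean log2 value of 8 gene lists on each of the 8 brain arrays in order of time, over the list's genes on the array; each point is 1 array. Cerebellar genes lie at 0.99 to 1.78 at 6 hours to 5 days and at 0.47 to 1.00 on the other arrays, and cytosolic ribosomal protein genes lie at 4.51 at 12 hours, below the other 7 arrays.

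Among glia the microglial list stood lowest. Of 14 measured microglia and macrophage genes 7 were lower (50.0%, against 5% of all genes) and 0 higher, with a median of -0.65. The difference was negative in 10 of them, which is 71.4%, against 65.8% of all genes. A further 4 had a positive difference: P2ry12, a purine receptor of microglia, at 0.58, Ctss, a lysosomal protease, at 0.58, Siglech, a sialic acid receptor, at 0.19 and Mrc1, the mannose receptor of macrophages, at 0.06. Another tested Siglech probe had the opposite sign, at -0.67, and was past the rule as lower. P2ry12 and Ctss did not overlap, lay just under 1.5-fold, and were past the rule as higher without the 12 hour array or without the 3 day array, while their 3 other arrays were below the array median. On the lower side, besides Fcer1g, the genes were Tyrobp, a like adaptor of immune receptors, at -0.92, C1qa and C1qb, chains of complement C1q, at -0.92 and -0.80, Trem2, a lipid receptor, at -0.81, Aif1, an actin-binding protein, at -0.70, and Tmem119, a membrane protein of microglia, at -0.61. The list's mean was 1.21 to 1.86 at 6 hours to 5 days and 1.85 to 2.12 on the other arrays. Trem2 and Tmem119 were outside the rule after quantile normalization, and Aif1 and Tmem119 did not reach 1.5-fold without the 12 hour array. Another tested Aif1 probe differed by -0.24 with overlap. The other glial lists had medians nearer to 0 than the microglial one, which shifted with the scale. The median was 0.10 for 15 oligodendrocyte genes, with Olig1, a transcription factor of the lineage, at 0.79 and Opalin, a myelin protein, at -0.72. For 13 astrocyte genes it was 0.01, with S100b, a calcium-binding protein, at 0.65, kept through the arrays of 6 hours to 5 days alone. After quantile normalization these medians were 0.15 and 0.16. For 6 Bergmann glia genes the median was 0.22, with Gdf10 at 1.57 with overlap and Etv5 lower at -0.60. For 6 ependymal genes it was -0.41, with 5 negative differences and Rarres2 lower at -0.67. The latter medians were 0.29 and -0.33 after quantile normalization, with Etv5 and Rarres2 outside the rule. Of the 20 general neuron genes Gap43, the growth cone protein, was higher at 0.85 and Thy1, a surface glycoprotein of neurons, lower at -0.71. These counts are 5.0% each way, against 3.94% higher and 5% lower of all genes. Opalin and Thy1 were outside the rule after quantile normalization, at -0.58 and -0.53.

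Genes of energy metabolism lay on both sides. Of 60 measured genes of oxidative phosphorylation 5 were higher and 7 lower (8.33% and 11.7%, against 3.94% and 5% of all genes). The median was -0.35, or -0.15 without the 12 hour array, where the median of all genes was -0.12. The higher genes were Atp5a1, Ndufb5 at 1.19, Ndufb2 at 1.02, Ndufb9 at 0.89 and Sdhd at 0.94. The lower genes included Atp5l at -0.92, Ndufb7 at -0.85, Atp5g2 at -0.79 and Sdhc at -0.71, so that subunits of the same complex (ATP synthase, complex I and complex II) were found on both sides. Probes of the same gene could differ as well. Ndufa5, also among the lower genes, was at -0.67, while a further tested Ndufa5 probe was at 0.94 and past the rule as higher. Sdhd was at 1.01, 0.59, 0.87, 0.57 and 1.06 at 6 hours to 5 days, against -0.25, -0.25 and 0.13 on the untreated, 1 hour and 10 day arrays, while Sdhc, which anchors complex II with it, was at 4.72, 3.98, 4.75, 4.92 and 4.67, against 5.53, 5.29 and 5.14. The lower side in brain rested on the 12 hour array. Without it 10 genes were higher and 3 lower, against 359 and 300 of all 9086 genes. After quantile normalization 6 were higher and 3 lower, against 481 and 169 of all. Sdhc was outside the rule in both settings (-0.56 and -0.58). In heart and liver the median of the list was -0.65 and 0.69, against -0.16 and 0.07 for all genes. The citric acid cycle had 3 higher genes of 18 (16.7%, against 3.94% of all genes) and 1 lower (5.56%, against 5%). The higher genes were Idh2 (mitochondrial isocitrate dehydrogenase) at 1.37, Sdhd and Dld (a shared dehydrogenase subunit) at 0.84, and the lower gene was Sdhc. Breakdown of branched-chain amino acids had 3 higher of 16 (18.8%, against 3.94% of all genes) and 0 lower. The higher genes were Aldh6a1, the last dehydrogenase of valine breakdown, at 1.59, Acadsb, an acyl-CoA dehydrogenase of isoleucine breakdown, at 1.38, and Dld. Dld, counted in both lists, lay below the array median on the untreated, 1 hour and 10 day arrays. It was therefore kept through the arrays of 6 hours to 5 days alone. Of 11 measured genes of NAD synthesis and sirtuins 9 had a negative difference, with a median of -0.18. Nampt, the rate-limiting enzyme of NAD salvage, was 1.05 higher, and lay below the array median on the untreated, 1 hour and 10 day arrays.

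Of 51 measured cytosolic ribosomal protein genes 44 had a negative difference (86.3%, against 65.8% of all genes). By the rule 8 were lower (15.7%, against 5% of all genes) and 0 higher, with a median of -0.41, or -0.23 without the 12 hour array. Further tested probes of these genes went both ways. That of Rps9 was past the rule as higher, at 1.21, and that of Rpl38 as lower, at -0.64, while that of Rps3 differed by 0.89 with overlap. Fau, which encodes RPS30 in a fusion, was at 6.14, 4.78, 6.10, 6.20 and 6.25 at 6 hours to 5 days, against 6.98, 6.96 and 6.37 on the untreated, 1 hour and 10 day arrays. Without the 12 hour array 2 of the 51 were lower and 1 higher, against 300 and 359 of all 9086 genes. After quantile normalization 1 was lower. In heart and liver the median of the list was -0.64 and 0.52, against -0.16 and 0.07 for all genes. Of 56 mitochondrial ribosomal protein genes 9 were lower (16.1%, against 5% of all genes) and 1 higher (1.79%, against 3.94%), Mrpl20 at 1.14. Without the 12 hour array 1 was lower and 2 higher, and after quantile normalization 3 were lower. Processed copies of ribosomal protein genes may share their probes. Of 17 heat shock genes 3 were higher (17.6%, against 3.94% of all genes) and 1 lower (5.88%, against 5%). Their median was -0.07, with 10 negative differences. Of 15 genes of the unfolded protein response 1 was higher (6.67%, against 3.94%) and 0 lower. The median of this list was -0.05, with 8 negative differences. Hspe1 and Hspd1, the mitochondrial chaperonin pair, were 0.93 and 0.60 higher, Hspa4, a nucleotide exchange factor, 0.60, and Dnajb9, a partner of the chaperone BiP, 0.95, while Cryab, a small heat shock protein, was lower at -0.80. Without the 12 hour array Hspa4 (0.53) and Cryab (-0.56) were outside the rule, and without the 3 day array Hspd1 (0.57). Hspa4 lay below the array median on the untreated, 1 hour and 10 day arrays, so it was kept through the other group alone. Pabpc1, the poly(A)-binding protein, was 1.38 higher and Stmn1, which destabilises microtubules, 1.22.

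In lists nearer to the pharmacology of the extract the counts were small. Of 9 measured adrenergic receptor and catecholamine genes 1 passed the rule (11.1%, against 8.94% of all genes), the transporter Slc6a2 described above, and the median was -0.06, or 0.02 after quantile normalization. Of 18 immediate early genes, which neurons switch on when they fire, 1 passed, Nr4a2 (5.56%), with a median of -0.24. Without the 3 day array 5 passed, all lower, against 902 lower of all 9086 genes, and the median was -0.40. Arc, a regulator of synaptic strength, differed by -0.94 with overlap: it was at 3.15, 2.90, 2.63, 4.61 and 3.63 at 6 hours to 5 days, against 4.64, 5.19 and 3.16 on the untreated, 1 hour and 10 day arrays. The 3 day array was thus high and the 10 day array low, in Junb and Fosb as well. Of 10 clock genes that peak with Dbp, Nr1d2, a repressor of the clock loop, was 1.21 higher and Cry2, a cryptochrome, lower at -0.67. These counts are 10.0% each way, against 3.94% higher and 5% lower of all genes. The median of the list was 0.07, or 0.22 after quantile normalization. Cry2 differed by -0.53 after quantile normalization and was then outside the rule.

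The 5 arrays were not equally far from the other 3. The 3 day array was the nearest in 231 of the 358 higher genes (64.5%) and in 326 of the 454 lower genes (71.8%). The median higher gene was 0.61 above the mean of the other group on the 3 day array, and between 0.82 (6 hours) and 1.03 (5 days) above it on the other 4. The 12 hour array was the farthest in 321 of the 454 lower genes (70.7%), where the median gene was at -1.18. The same median was -0.40 on the 3 day array and between -0.69 and -0.62 on the arrays of 6 hours, 24 hours and 5 days. In the higher genes the farthest array was most often that of 5 days (158 genes, 44.1%) or 12 hours (140 genes, 39.1%).

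**Figure D3:**
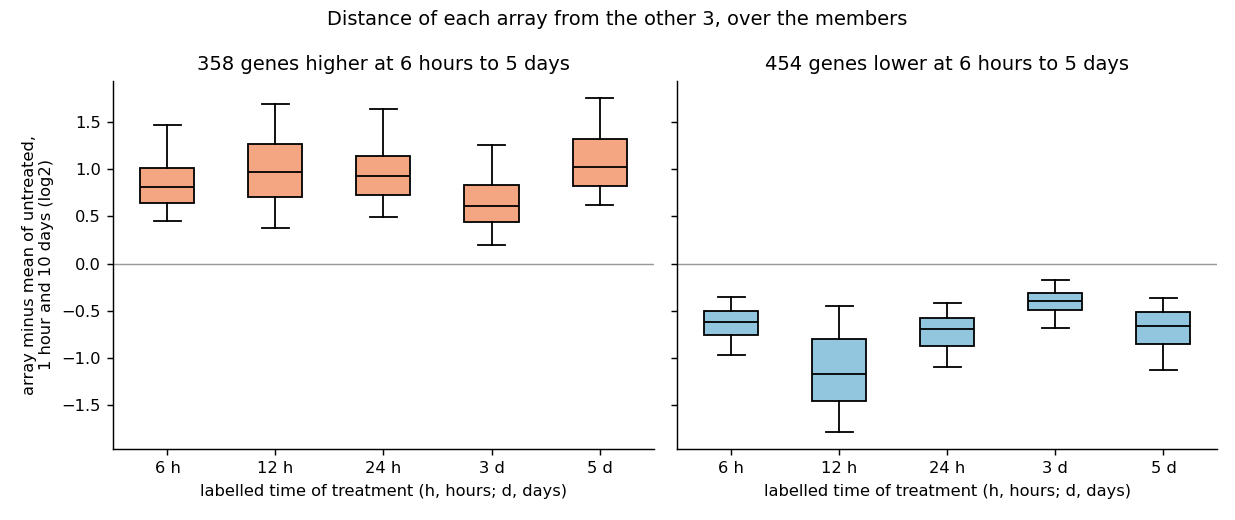
Each array of 6 hours to 5 days minus the mean of the untreated, 1 hour and 10 day arrays, on the log2 scale, over the 358 higher genes (left) and the 454 lower genes (right); boxes span the quartiles with the median as a line, and whiskers the 5th to 95th percentile of genes. The 3 day boxes lie nearest to 0, with medians of 0.61 and -0.40, and the 12 hour box is the farthest on the lower side, at -1.18.

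The same times were set against each other on the heart and liver arrays, over the same 9086 genes. In heart 222 genes (2.44%) were higher and 752 (8.28%) lower by the rule, and in liver 152 (1.67%) and 78 (0.858%). Of the 358 genes higher in brain, 162 were also higher in heart, which is 45.3% of the brain genes and 73% of the heart genes, and 23 in liver (6.42% and 15.1%). Of the 454 lower genes, 181 were also lower in heart (39.9% of the brain genes and 24.1% of the heart genes) and 14 in liver (3.08% and 17.9%). No member was past the rule in the opposite direction in heart, and 2 were in liver. The heart difference had the brain's sign in 92.7% of the higher genes, against 29.6% of all genes, and in 93.2% of the lower genes, against 70.4%. In liver these shares were 76.8%, against 60.7%, and 53.5%, against 39.3%. The shape of the brain arrays changed at the same times, and its part in these overlaps was not tested.

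Genes past the rule in all 3 tissues numbered 16 higher and 8 lower. Atp5a1 differed by 1.73 in brain, 2.01 in heart and 1.29 in liver, Aldh6a1 by 1.59, 1.42 and 1.16, Idh2 by 1.37, 1.44 and 1.21, and Nampt by 1.05, 1.80 and 1.00. Others on the higher side were Vapa, Aldh1a1 (a retinaldehyde dehydrogenase), Acadsb, Ddx3x (an RNA helicase), Ptma (prothymosin alpha), Chp1, Ndufb5, Dst, Dazap2, Kctd2, Coq2 and 4833439L19Rik. The 8 lower genes were Gpx4, Nenf, Psmb5, Cryab, Bok, B3gat3, Mboat7 and Cox8b, with Cox8b, a cytochrome oxidase subunit of muscle, at -0.96 in brain, -0.87 in heart and -1.42 in liver. Cox8b rested on the 1 hour liver array: without it the liver difference was -0.52, under 1.5-fold. Leaving out 1 heart or liver array at a time, a setting added after the data were seen, kept 13 to 16 of the 16 higher and 5 to 8 of the 8 lower genes, with 5 lower genes without the untreated heart array or the 1 hour liver array. In contrast, 189 higher and 266 lower genes were past the rule in brain alone, without a test of the difference between tissues. En2 differed by -0.16 in heart and 0.07 in liver, Zic1 by 0.13 and 0.28, Cort by -0.04 and -0.12, and Cartpt by 0.02 and 0.25. Ccl21a, Ccl21c and Ccl21b were also past the rule in heart, at -0.91, -1.03 and -0.99, and were at 0.47, -0.15 and 0.02 in liver.

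**Figure D4:**
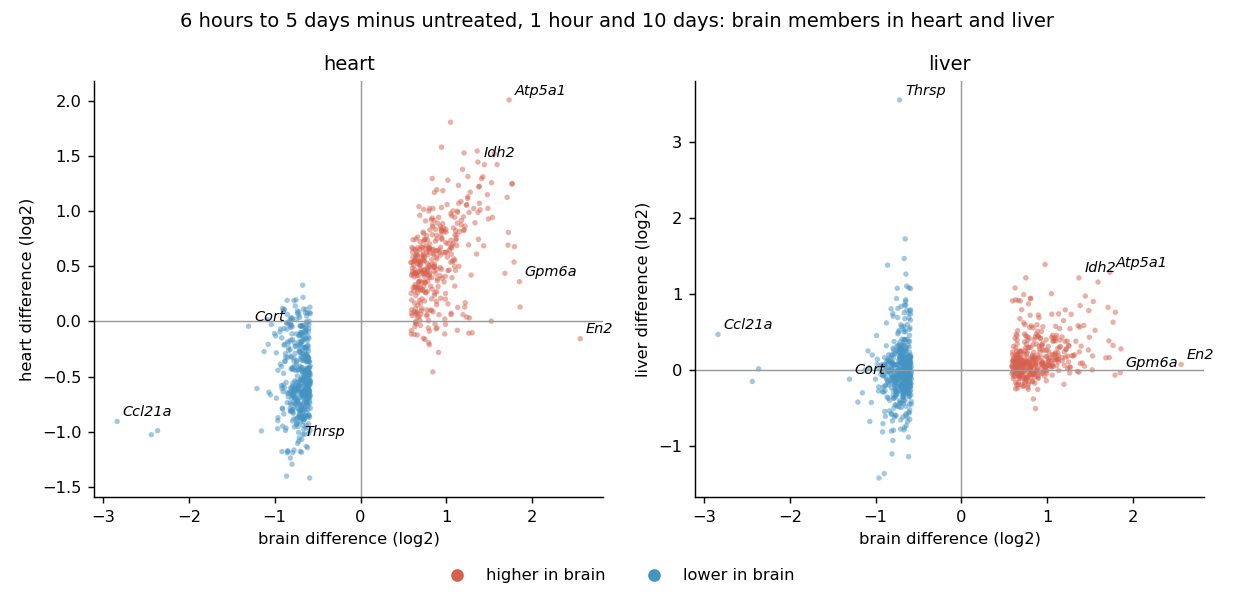
Difference between 6 hours to 5 days and the untreated, 1 hour and 10 day arrays (log2) in heart (left) and liver (right), against the same difference in brain, for the 812 genes past the rule in brain; each point is a gene. Atp5a1 and Idh2 are higher in all 3 tissues, En2 differs by -0.16 in heart and 0.07 in liver, and Thrsp is lower in brain at -0.72 and higher in liver at 3.55.

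Over all 24 arrays, with each tissue centred, the genes whose level was most like the grouping of times were Idh2 (Pearson r = 0.95), Atp5a1 (0.94), BC005537 (0.92), Aldh6a1, Acadsb, Dst, Ptma and Otud6b (0.91 each), Ddx3x (0.90) and Plaa (0.90). These values are descriptions, and the arrays of a tissue share their centring. All 10 were higher at 6 hours to 5 days.

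Differences inside the groups were fitted across all 9086 genes with limma, with 4 groups of the 8 brain arrays. The groups were chosen as arrays that fall together, so a low count inside them is no evidence of likeness. The mean of the 1 hour and 10 day arrays was compared with the untreated array, which is assumed to vary like the others. By limma 0 genes passed (lowest adjusted p = 1.00), and the unadjusted p was under 0.05 for 7. Ifi27l2a, an interferon-induced gene, was at 0.29 and 0.29 on the 1 hour and 10 day arrays, against 1.25 on the untreated array, a difference of -0.97 (SE 0.27, limma adjusted p = 1.00). Usp18, an interferon-induced protease, differed by -0.63 (SE 0.23). Within the other group, the 6 and 12 hour arrays were compared with those of 24 hours, 3 days and 5 days. Here too limma called 0 genes (lowest adjusted p = 0.952), and the unadjusted p was under 0.05 for 203. Ly86, a partner of a Toll-like receptor homologue on microglia and B cells, was at 1.23 and 0.80 at 6 and 12 hours, against 1.54, 1.78 and 1.64 at 24 hours, 3 days and 5 days (-0.64, SE 0.18). Arid5b, a DNA-binding cofactor, differed by -0.71 (SE 0.21). Such tests rest on 8 arrays whose p-values measure only the spread between them, and a missed threshold does not show that values were equal.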

How the data were processed

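Biotin-labelled cRNA made from total RNA was measured on Illumina bead arrays, per the labels' protocols. The authors deposited 1 table of log2 values (25697 probes by 24 arrays, each centred near 0); the base is taken as 2 because no label states it, and how the authors corrected background and normalized is not stated in the sources used here. Another deposited table of intensities was not used, because its 24 columns match no label, so detection p-values were not analysed here, and the number of arrays limits the precision. Probe genes came from the platform annotation: 23141 probes had 1 symbol, 0 several and 2556 none, giving 16110 genes. Of the 4507 genes with several probes, that with the highest mean over 24 arrays was used. Genes above the array median on at least 3 of 8 brain arrays (9086) were kept.

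The arrays and gene lists were chosen with earlier results of these data known. Groups were described by the difference of means and by overlap. Differences within the groups were tested with limma 3.58.1 in R 4.3.3 (lmFit, eBayes, two-sided, Benjamini-Hochberg over all genes, adjusted p under 0.05), checked on simulated data. Named are the 12 largest differences each way past the rule and above the array median on all arrays of the higher group; per list, the 4 largest and any further member past the rule; per tested contrast, the genes called or the 2 lowest p; and the 10 genes most like the grouping. Symbols were matched to promoters from RefSeq (GRCm38.p6). Alternatives were other scalings, filters, probe choices, a 2-fold limit, and leaving out arrays.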

Additional observations from a re-analysis of the deposited data

Results flagged for a closer look

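Among the 5 brain arrays of 6 hours to 5 days, 24 named genes and 41 lists were checked for a lone array by Dixon's criterion, which chance meets in about 1 in 20 groups. It marked 3 genes and 4 lists. The genes are the CCL21 copies, in which the 3 day array stood above the other 4: Ccl21a was at 2.75, against at most -0.25 on the others, Ccl21c at 1.99 and Ccl21b at 2.17. Their probes may measure the same transcripts, so the 3 are not separate observations.

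The lists are all marked by the 12 hour array. The mean of the hypothalamic genes was 1.04 there, against 1.57 to 1.70 on the other 4 arrays, that of cytosolic ribosomal protein genes 4.51, against 5.33 to 5.51, and that of mitochondrial ribosomal protein genes 2.23, against 2.80 to 2.96. The glutamate and GABA receptor genes went the other way, at 1.35, against 1.14 to 1.19.

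Rgs16 and Thrsp, a nuclear protein of fat synthesis, were lower at 6 hours to 5 days in brain, at -0.66 and -0.72, and higher in liver, at 1.72 and 3.55, with no overlap of the arrays in either tissue. The difference between the tissues was not tested.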

How the results depend on the processing

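No paired analysis was possible because each tissue and time is 1 array and the labels pair no arrays. Counts of genes past the rule (358 higher and 454 lower) moved with the scale and with single arrays. Lower genes numbered 169 after quantile normalization over the 8 brain arrays and 188 over all 24, where 74% and 69.8% of the genes past the rule were higher. At 2-fold 106 were higher and 13 lower, and without the 12 hour and 3 day arrays 547 and 772. Leaving out 1 array at a time gave 345 to 506 higher and 300 to 907 lower genes. The tested contrast of 6 and 12 hours against 24 hours, 3 days and 5 days called 0 to 500 genes in these fits, with 500 only where the 12 hour array stood alone after the 6 hour array was left out, and 0 under the other alternatives run. The contrast of 1 hour and 10 days against untreated called 0 genes under each alternative run. No direction of the 24 named genes reversed under the alternatives run. With the mean of a gene's probes Gpm6a differed by 0.89, 4833439L19Rik by 0.59 and Tnfrsf25 by -0.51. Of the 615 list medians recomputed under alternatives, 11 moved by more than their spread, in 5 lists (astrocyte, endothelium, clock genes of the Dbp phase, NAD synthesis and sirtuins, hindbrain). Signal over background could not be judged from the deposited values, and with 1 array per time no replicate error is known.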

Other observations

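The pituitary hormone genes followed neither group. Gh, growth hormone, was at -0.40, 2.59, -0.38, 2.18 and 0.28 on the arrays of 6, 12 and 24 hours, 3 days and 5 days, against 0.07, 2.61 and -0.82 on the untreated, 1 hour and 10 day arrays. Prl, prolactin, was high on the same 3 arrays, those of 12 hours, 3 days and 1 hour, while Tshb, Lhb, Fshb and Cga lay below the array median on all 8. The olfactory bulb genes Cdhr1, a cadherin, and Doc2g, a vesicle protein, were highest at 5 days, at 3.42 and 1.05. On the other arrays of 6 hours to 5 days Cdhr1 was at 1.67, 2.55, 2.03 and 2.04, against 1.88, 1.96 and 1.58 on the untreated, 1 hour and 10 day arrays.

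The globin genes did not move together. Hbb-bt, an adult beta globin, was at 2.05, 2.12, 2.67, 2.00 and 2.97 at 6 hours to 5 days, against 1.25, 1.37 and 1.90 on the untreated, 1 hour and 10 day arrays. Hba-a1, an alpha globin, differed by -0.36 with overlap.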
